A study of Mus musculus with 8 samples.

Results

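From a table of murine megakaryocyte (MK) RNA, 9 genes were taken among those for the superoxide-producing NADPH oxidases and the enzymes that remove their products. They are Cybb, Cyba, Ncf1, Ncf4, Nox4, Sod1, Sod2, Sod3 and Cat, chosen by gene symbol, and all 9 were found among the 13387 genes of the table. The libraries came from C57BL/6 wild-type bone marrow cells, with 4 libraries of MKs cultured alone and 4 of MKs cocultured with mesenchymal stromal cells (MSCs) for 18 hours. MKs were enriched from marrow with CD41 beads and large-cell columns, the MSCs were sorted as CD45-Ter119-CD31-CD51+CD140a+ cells, both cultures held thrombopoietin, and several wells were pooled for a library. GEO's labels give the sequenced cells as MKs that had been separated from platelets, whereas the methods describe the RNA as that of platelets. The legend of the sequencing experiment gives as many mice per group as there are libraries, and the labels do not tie a library to a mouse.

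The phagocyte NADPH oxidase is a membrane enzyme that passes electrons from NADPH to oxygen and so makes superoxide. Its membrane core is a pair of proteins, the catalytic gp91phox (Cybb) and its partner p22phox (Cyba), and it is switched on when cytosolic subunits, among them p47phox (Ncf1) and p40phox (Ncf4), and a Rac GTPase join the core. The enzyme is best known for the oxidative burst of neutrophils and macrophages. NOX4 also pairs with p22phox, needs none of the cytosolic subunits, releases mainly hydrogen peroxide, and is known from fibroblasts and other mesenchymal cells. Superoxide dismutases turn superoxide into hydrogen peroxide in the cytosol (Sod1), the mitochondrion (Sod2) and outside the cell (Sod3), and catalase (Cat) breaks that peroxide down in peroxisomes.

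Of the 9 members, 7 had a promoter in the RefSeq table of GRCm38.p6, which holds 250 bases before and 50 after each start site, and Ncf4 and Sod3 are named only. The 4 promoters shown belong to the oxidase genes whose levels are set against each other below, 2 that were lower in the coculture (Cybb, Ncf1), the partner Cyba and the alternative oxidase Nox4. Each is printed 5′ to 3′ on the strand of its gene, and capitals mark matches on either strand to 5 motifs. These were the CCAAT box, with the letters of its name, and GAGGAA, a word of the kind that ETS factors such as PU.1 bind. The TATA box was searched as TATAAA. The core of the antioxidant response element was searched as TGACNNNGC. The GC box was searched as GGGCGG. No matches overlap in these 4. They lie at chrX:9469275-9469574 (minus strand) for Cybb, chr5:134229576-134229875 (minus strand) for Ncf1, chr8:122432891-122433190 (minus strand) for Cyba and chr7:87246399-87246698 (plus strand) for Nox4.
Cybb: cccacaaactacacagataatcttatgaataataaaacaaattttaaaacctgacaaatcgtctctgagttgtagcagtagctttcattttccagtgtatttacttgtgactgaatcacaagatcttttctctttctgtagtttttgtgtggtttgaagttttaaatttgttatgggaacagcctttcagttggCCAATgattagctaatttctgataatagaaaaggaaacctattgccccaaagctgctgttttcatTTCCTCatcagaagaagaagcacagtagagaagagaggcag
Ncf1: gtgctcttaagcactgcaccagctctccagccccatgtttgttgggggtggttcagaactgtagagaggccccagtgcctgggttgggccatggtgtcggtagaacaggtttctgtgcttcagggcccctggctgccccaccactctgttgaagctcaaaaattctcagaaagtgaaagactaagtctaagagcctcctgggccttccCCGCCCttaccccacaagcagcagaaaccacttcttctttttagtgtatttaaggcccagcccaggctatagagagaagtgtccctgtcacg
Cyba: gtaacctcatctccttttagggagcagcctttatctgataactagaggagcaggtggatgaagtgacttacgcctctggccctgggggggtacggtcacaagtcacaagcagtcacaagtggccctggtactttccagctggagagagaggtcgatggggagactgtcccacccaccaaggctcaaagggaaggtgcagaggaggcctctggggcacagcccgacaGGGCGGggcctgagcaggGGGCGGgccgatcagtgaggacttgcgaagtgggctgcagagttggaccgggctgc
Nox4: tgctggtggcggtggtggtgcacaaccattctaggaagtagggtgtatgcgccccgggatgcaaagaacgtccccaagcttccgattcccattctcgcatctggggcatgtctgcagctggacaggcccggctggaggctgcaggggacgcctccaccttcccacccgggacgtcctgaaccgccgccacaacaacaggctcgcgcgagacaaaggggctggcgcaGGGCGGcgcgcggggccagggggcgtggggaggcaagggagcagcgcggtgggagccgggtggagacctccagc
The Cybb promoter held a CCAAT, present in 37.4% of 32851 promoters of the same length, and a GAGGAA on the opposite strand, present in 28.3%. The other 3 held only the GC box, which was in 35.7% of all promoters. The TATA box (13.6% of all promoters) and the core of the antioxidant response element (12.4%) had no match in these 4 windows. The GC content of the Cybb promoter was 35.3%, against 54.0% for Ncf1, 60.7% for Cyba, 68.3% for Nox4 and a median of 52.7% over all promoters. A match is a description of the letters and not a binding site. The other 5 genes lie at chr15:78244801-78262580 (Ncf4), chr16:90220754-90226329 (Sod1), chr17:13006846-13040063 (Sod2), chr5:52363791-52371418 (Sod3) and chr2:103453849-103485160 (Cat, minus strand) in GENCODE on GRCm38.

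Totals ran from 4939874 to 9272984 counts in MKs cultured alone and from 5193949 to 12523616 in the cocultures. Replicate 3 of the cocultures stood apart. It held counts for 10735 genes, against 13104 to 13193 in the other cocultures, and its Spearman correlation with them was 0.700 to 0.734, whereas they correlated with each other at 0.971 to 0.978. Values that rest on it are therefore given with and without it. MK and platelet markers were present in both groups, with a summed level of 1783 to 2158 CPM (counts relative to the TMM-scaled size of the library) in MKs alone and 1665 to 2244 CPM in the cocultures, and 0 of their 12 genes were called. Markers of other cells moved with the coculture. The summed neutrophil markers were 83081 to 84132 CPM in MKs alone and 4510 to 10204 CPM in the cocultures, and 11 of 11 were called lower. Macrophage markers summed to 151 to 226 CPM and 923 to 1394 CPM, with 8 of 9 tested genes called higher, and MSC markers to 14.6 to 19.4 CPM and 1408 to 3965 CPM, with 7 of 8 called higher. Several of these markers had means near 0 in MKs alone, such as Sparc (0.548 CPM), Col3a1 (0.0552) and C1qa (0.171). For such genes a difference was built into their being tested, so their calls are a description. Others, such as Csf1r (105 CPM) and Pdgfrb (8.89), were not near 0 there. Eosinophil markers (5 of 6) and B cell markers (4 of 8) were called lower, and 0 of 3 erythroid markers tested were called. Beside these counts, 13.2% of all genes tested were called higher and 7.31% lower. No marker in the table was at 0 in every library of a group. In bulk RNA, fewer cells of a type and less RNA per cell cannot be told apart, and the part of these cells in the results on the oxidase genes was not tested.

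**Figure D1:**
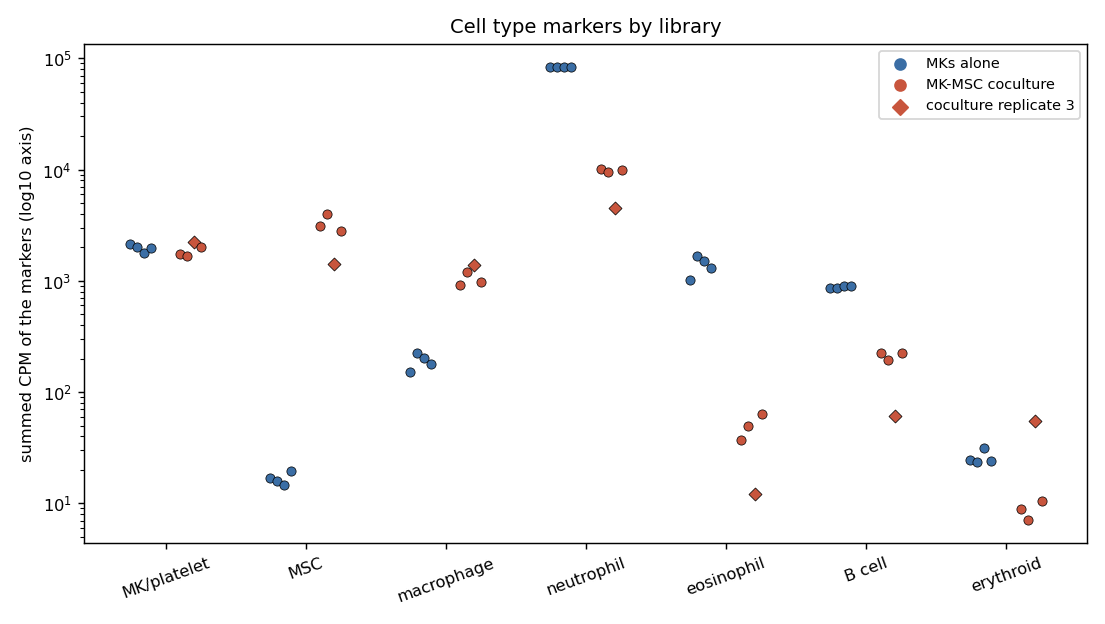
Summed levels of cell type marker lists (CPM, log axis) in each library of MKs cultured alone and of MKs cocultured with MSCs. Neutrophil markers sit at or above 83081 CPM in MKs alone and at or below 10204 CPM in the cocultures, and MK and platelet markers overlap between the groups.

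A call required 3 things, a 2-fold or larger change, a Benjamini-Hochberg adjusted p of no more than 0.05 over 11722 genes (edgeR's quasi-likelihood test), and 1 CPM or more as the mean of either group. Of all genes tested, 20.5% were called, 13.2% higher in the coculture and 7.31% lower. All 9 members were tested. For 7 of them every library of both groups was above the filter on low counts, and of these 2 were called lower (Cybb and Ncf1) and 1 higher (Sod2). Nox4 and Sod3 passed the filter only through the coculture libraries, so a difference was built into their being tested, and both were called higher. Cyba, Ncf4, Sod1 and Cat were not called. Without replicate 3 of the cocultures, Sod2 was no longer called, Ncf4 was called lower, and the shares of all 12267 genes then tested were 20.6% higher and 15.4% lower.

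**Figure D2:**
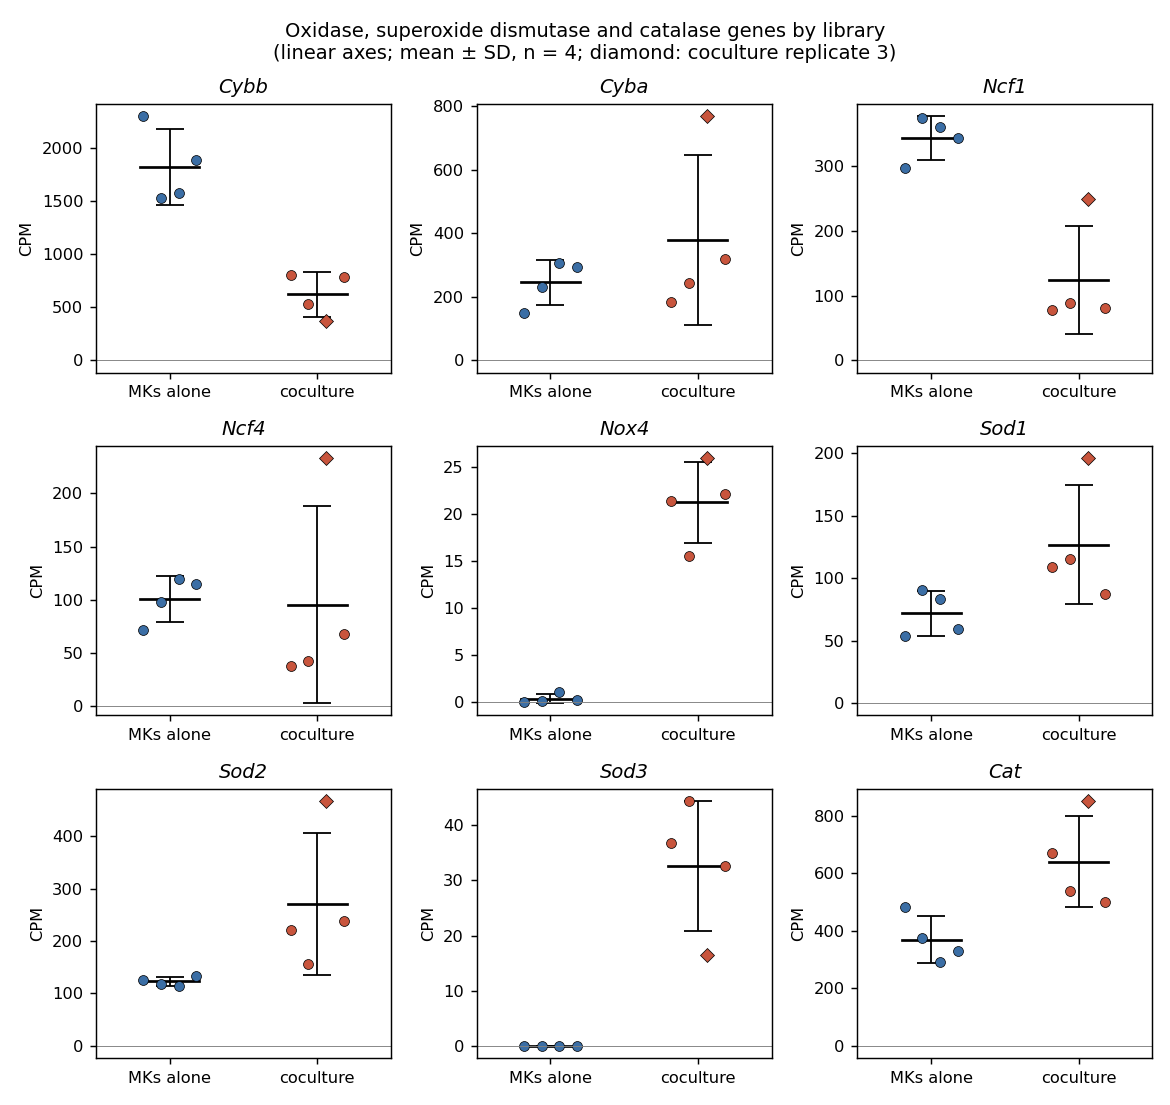
Level of each of the 9 genes (CPM) in each library, with the mean and SD of each group of 4 (diamonds, coculture replicate 3). The groups do not overlap for Cybb and Ncf1 (coculture lower) and for Nox4, Sod2, Sod3 and Cat (coculture higher), and they overlap for Cyba, Ncf4 and Sod1.

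Cybb, the catalytic core of the phagocyte enzyme, had the highest CPM of the 9 genes in MKs cultured alone. Its level was 2299, 1530.1, 1571 and 1889 CPM in replicates 1 to 4 of MKs alone and 807, 527, 371 and 789 CPM in the cocultures. All 4 cocultures were below all 4 libraries of MKs alone, as was the case for 21.1% of all genes tested, while 40.3% did not overlap in either direction. The log2 fold change was -1.55 ± 0.29 (SE, n = 4 and 4) with an adjusted p of 0.00529, and Cybb remained called without replicate 3 of the cocultures (-1.38 ± 0.22, adjusted p = 4.34e-05). Cyba, its membrane partner, was at 151, 231, 307 and 294 CPM in MKs alone and at 183, 245, 770.0 and 321 CPM in the cocultures. The groups overlapped, and the highest value was that of coculture replicate 3. The log2 fold change of Cyba was 0.63 ± 0.45 (adjusted p = 0.355), and it was -0.0026 ± 0.24 (adjusted p = 0.994) without that library.

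Ncf1, the organizer subunit p47phox, was measured at 296, 374, 359 and 343 CPM in MKs alone and at 78.1, 88.7, 248 and 80.5 CPM in the cocultures. All cocultures were below all libraries of MKs alone, with replicate 3 well above the other 3. Its log2 fold change was -1.47 ± 0.39 (adjusted p = 0.0272) and -2.08 ± 0.17 (adjusted p = 3.69e-08) without replicate 3. The call was lost when any other library was left out, with adjusted p between 0.0573 and 0.0864. Exons of Ncf1 overlap those of Gtf2ird2 on the opposite strand over 408 bases, and the use of strand in counting is not given in the sources used here, but Gtf2ird2 held at most 64 counts in any library. Ncf4, the p40phox subunit, was at 71.7, 97.6, 120 and 115 CPM in MKs alone and at 38.3, 42.9, 233 and 68.2 CPM in the cocultures. Coculture replicates 1, 2 and 4 were below every library of MKs alone and replicate 3 was above them all. Its log2 fold change was -0.08 ± 0.56 (adjusted p = 0.935) with all libraries and -1.05 ± 0.23 (adjusted p = 0.00109, called lower) without replicate 3. The call thus rests on leaving that library out.

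Nox4 was near 0 in MKs cultured alone, where the libraries held 0, 1, 9 and 1 counts, and it held 226, 119, 248 and 128 counts in the cocultures. On the CPM scale these were 0, 0.103, 0.998 and 0.163 against 21.4, 15.5, 25.95 and 22.2. Every coculture was above every library of MKs alone, and the spread within the cocultures was small beside the gap. The fitted log2 fold change was 5.89 ± 0.94 and 5.67 ± 0.52 without replicate 3 of the cocultures. Nox4 passed the filter only through the cocultures, so its fold changes are a description and no p is given. Replicate 3 of MKs alone held 9 of the 11 counts of its group, and without it the fitted value was 7.56. MSC markers rose in the same libraries. Nox4 was highest in coculture replicate 3, which had the lowest MSC marker score (mean log2(CPM + 1) of 4.72, against 6.67 to 6.998 in the other cocultures). The part of MSC RNA in the level of Nox4 was not tested. Of the 8 other oxidases and oxidase subunits looked for, Nox1 alone was in the table, with 0 counts in each library of MKs alone and 4, 0, 87 and 7 in the cocultures, and it did not pass the filter.

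The dismutases differed in level and in how far they separated the groups. Sod1, the cytosolic copper-zinc enzyme, was at 53.9, 90.8, 83.4 and 59.7 CPM in MKs alone and at 109, 116, 196 and 87.6 CPM in the cocultures. The groups overlapped narrowly, and the log2 fold change of 0.82 ± 0.30 had an adjusted p of 0.0839 (0.51 ± 0.20, adjusted p = 0.0431, without replicate 3). Sod2, the mitochondrial manganese enzyme, was at 126, 118, 115 and 132 CPM in MKs alone and at 222, 157, 467 and 238 CPM in the cocultures. Its groups did not overlap, as for 19.3% of all genes in that direction, and its log2 fold change was 1.14 ± 0.32 (adjusted p = 0.0322). Without replicate 3, the highest coculture, Sod2 differed by 0.73 ± 0.18 (adjusted p = 0.00221), below a fold of 2. The call of Sod2 also ended when any library of MKs alone (adjusted p of 0.0831 to 0.0929) or coculture replicate 4 (0.0525) was left out. Sod3, the secreted enzyme, had 0 counts in all 4 libraries of MKs alone and 388, 341, 158 and 188 counts in the cocultures, or 36.8, 44.4, 16.5 and 32.6 CPM. Against a floor of 3 counts over the group of MKs alone, its mean was at least 319-fold higher in the coculture. Sod3 passed the filter only through the cocultures, so this fold is a description and no p is given. The lowest coculture was replicate 3, which also had the lowest MSC marker score, and the part of MSC RNA in the level of Sod3 was not tested.

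Cat was at 484, 375, 290 and 331 CPM in MKs alone and at 671, 538, 852 and 502 CPM in the cocultures. The groups did not overlap, but the log2 fold change of 0.79 ± 0.24 (adjusted p = 0.0436) was under a fold of 2, and it was 0.61 ± 0.19 (adjusted p = 0.0146) without replicate 3.

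**Figure D3:**
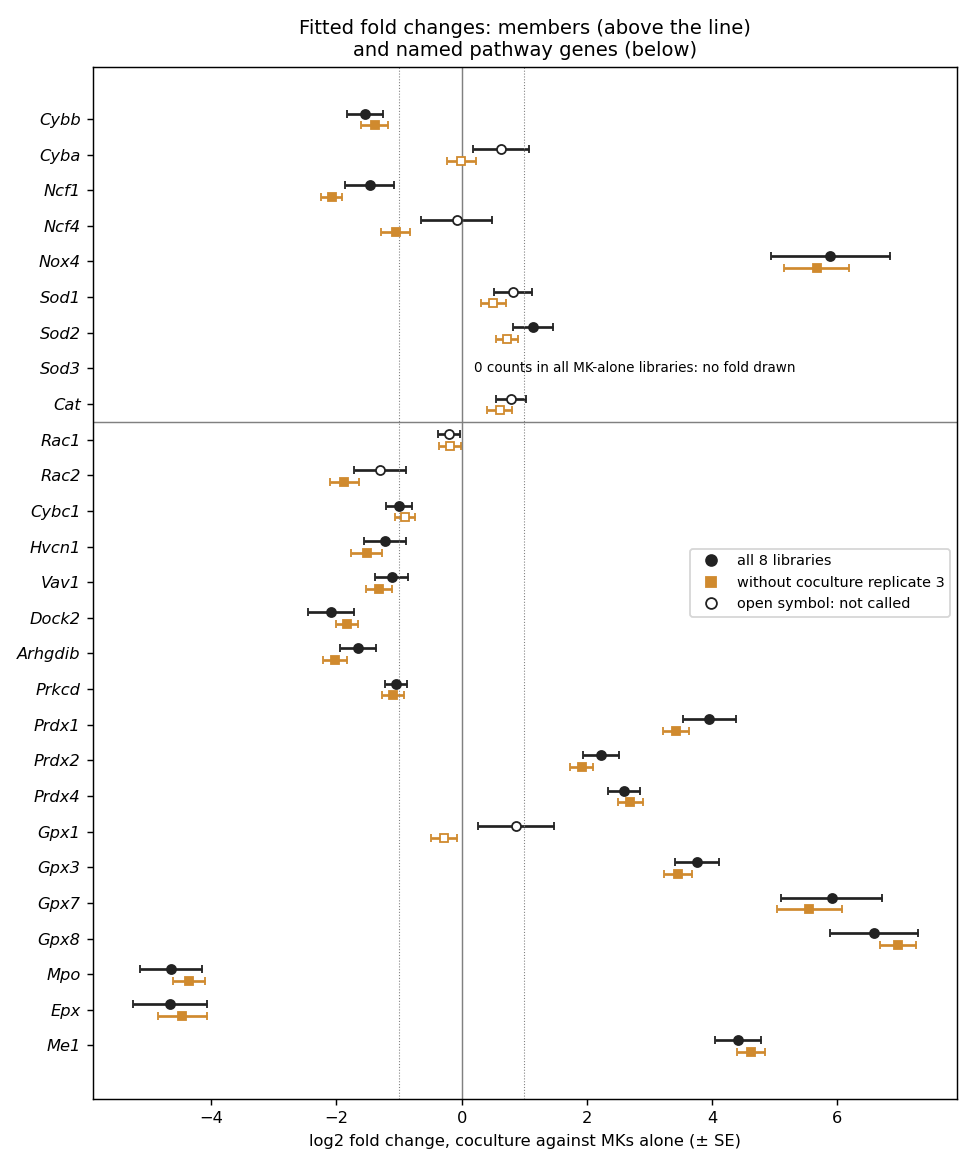
Log2 fold change (coculture minus MKs alone) with its SE for the 9 genes (above the line) and named pathway genes (below), with all 8 libraries (circles) and without replicate 3 of the cocultures (squares). Filled symbols were called, and dotted lines mark a 2-fold change. Sod3 has no point because it had 0 counts in all libraries of MKs alone, and Ncf4 moves from -0.08 to -1.05 when replicate 3 is left out.

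Levels were compared between genes after division by the length of the principal transcript (CPM per kb). In MKs alone the order was Cybb (383 ± 74.9, SD, n = 4), Cyba (330.5 ± 96.2), Cat (141 ± 32.0), Ncf1 (126 ± 12.4), Sod1 (112 ± 28.0), Ncf4 (69.0 ± 14.9), Sod2 (20.9 ± 1.36), Nox4 (0.0842 ± 0.122) and Sod3 (0). Cybb and Cyba overlapped in range, as did Cat with Ncf1, Ncf1 with Sod1, and Nox4 with Sod3. In the coculture the order was Cyba (510.1 ± 358), Cat (245 ± 60.6), Sod1 (198 ± 74.1), Cybb (131 ± 44.4), Ncf4 (65.3 ± 63.2), Sod2 (46.3 ± 23.1), Ncf1 (45.5 ± 30.5), Sod3 (8.72 ± 3.15) and Nox4 (5.67 ± 1.15). There, of neighbours in the order, only Ncf1 and Sod3 did not overlap. Without coculture replicate 3, Cyba was at 335 ± 92.7 and Ncf4 at 34.0 ± 11.0 (SD, n = 3), and Ncf4 came after Sod2 (35.1 ± 7.33), with which it overlapped.

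Ratios within a library do not depend on how libraries are scaled, and 6 were tested by a two-sided exact permutation test with adjustment over the 6. The ratio of Cybb to Cyba, per kb, was 2.39, 1.04, 0.800 and 1.01 in MKs alone and 0.691, 0.338, 0.0754 and 0.385 in the cocultures. The groups did not overlap, with a mean log2 difference of -2.05 (p = 0.0286, the smallest that 4 against 4 allows, adjusted p = 0.0429 by the exact test). The ratio of Ncf1 to Ncf4 was 2.22, 2.06, 1.62 and 1.60 in MKs alone and 1.10, 1.11, 0.574 and 0.635 in the cocultures, a mean log2 difference of -1.18 (exact permutation p = 0.0286, adjusted p = 0.0429). Nox4 relative to Cybb differed by 7.95 and Sod3 relative to Sod1 by 7.97 on the log2 scale. Nox4 and Sod3 were under the filter in every library of MKs alone, so these differences were built in and are given as a description. Their p stayed in the family of 6, and the adjusted p of 0.0429 for the ratios above rests on that. When the adjustment was made over the other 4 ratios alone, a choice made after seeing the data, the exact permutation test gave an adjusted p of 0.0571 for Cybb to Cyba and for Ncf1 to Ncf4, which missed the threshold. The values of Nox4 to Cybb and Sod3 to Sod1 also depend on the offset of 0.5 counts, and with 1 count they were 7.47 and 6.97. Sod2 relative to Sod1 (0.24, exact permutation p = 0.457) and Cat relative to Sod1 (0.00069, exact permutation p = 1.0) did not pass the test.

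**Figure D4:**
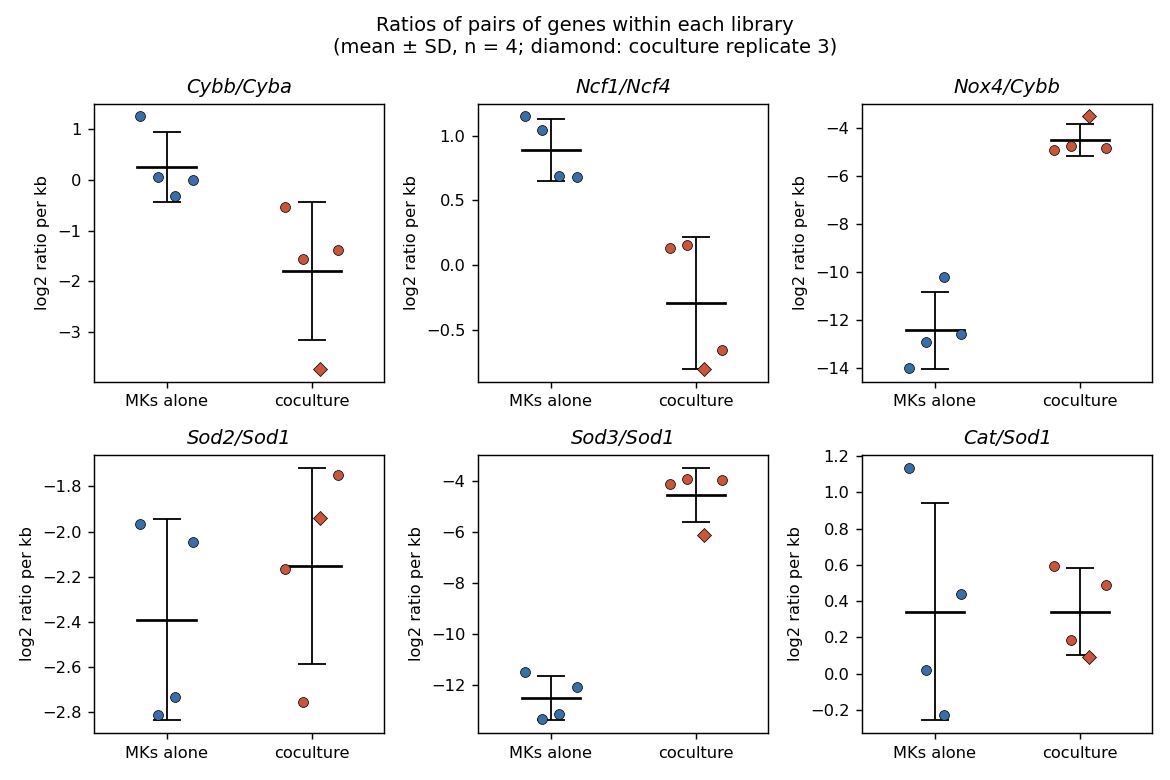
Log2 ratio of 2 genes within each library (counts per kb), for the 6 ratios, by group, with mean and SD (diamonds, coculture replicate 3). The ratios of Cybb to Cyba and Ncf1 to Ncf4 are lower in every coculture than in any library of MKs alone, and those of Sod2 and Cat to Sod1 overlap.

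Genes that work with the phagocyte oxidase were examined as a list of 11 partners and regulators. Of these, 6 were called lower and 0 higher, against 7.31% and 13.2% of all genes tested. The median log2 fold change of the list was -1.04, against 0.03 for all genes. Without coculture replicate 3, 15.4% of all genes were called lower, and in the list Rac2 and Prex1 gained a call while Cybc1 lost its own. Prex1 went from -0.51 ± 0.62 (adjusted p = 0.599) to -1.66 ± 0.23 (adjusted p = 1.17e-05) without that library. Cybc1, a chaperone of the membrane core, was called lower at -1.002 ± 0.20, just past the 2-fold limit, and Hvcn1, the proton channel that offsets the oxidase's charge, at -1.22 ± 0.33. The Rac activators Vav1 (-1.12 ± 0.26) and Dock2 (-2.09 ± 0.37), Arhgdib, which holds Rac and related GTPases in their inactive form in the cytosol, (-1.66 ± 0.29) and the kinase Prkcd (-1.04 ± 0.17) were also called lower. Rac2, the GTPase of blood cells, was at 757 ± 181 and 308 ± 200 CPM (SD, n = 4) with a log2 fold change of -1.30 ± 0.42 (adjusted p = 0.0531), and it was not called. It was called lower without coculture replicate 3 (-1.87), and also by DESeq2 (adjusted p = 0.0196), with library size only (0.0195), scaled to the MK and platelet markers (0.0318), without the filter on low counts (0.0485) and with the replicate block (0.0244). Rac1, the widely expressed GTPase, was at 719 ± 99.1 and 624 ± 59.9 CPM (-0.21 ± 0.17, adjusted p = 0.431). Leaving out 1 library ended the call of Cybc1 without replicate 3 of the cocultures (-0.91), of Prkcd without coculture replicate 2 (-0.96), and of Vav1 without coculture replicate 1 or 2 (both -0.99) or replicate 2 (-0.99) or 3 (-1.06) of MKs alone. Cybc1 also lost its call without replicate 2 (-0.95) or 3 (-0.996) of MKs alone or coculture replicate 4 (-0.98), and Hvcn1 without any library but coculture replicate 3 (adjusted p of 0.0528 to 0.0788). Scaled to the MK and platelet markers, Cybc1 (-0.92) and Prkcd (-0.988) were under the 2-fold limit. Neutrophil markers were lower in the same libraries, and their part in these changes was not tested.

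Of 14 genes for peroxide enzymes and copper delivery to SOD1, 6 were called higher and 2 lower, against 13.2% and 7.31% of all genes tested. The 6 include Gpx7, which passed the filter only through the cocultures, so a difference was built into its being tested. The median log2 fold change of the list was 1.53, against 0.03 for all genes, and it was 0.76 without coculture replicate 3, where 6 were again called higher and 2 lower. The peroxiredoxins Prdx1 (3.96 ± 0.42), Prdx2 (2.23 ± 0.29) and Prdx4 (2.59 ± 0.26) rose, and so did the glutathione peroxidase family members Gpx3 (3.76 ± 0.35), Gpx7 (5.91 ± 0.81) and Gpx8 (6.59 ± 0.70). Prdx1 reached 12063 ± 7390 CPM in the cocultures from 776 ± 63.8 CPM in MKs alone. Gpx7 was near 0 in MKs alone (0.175 ± 0.137 CPM), under the filter there, so its fold change is a description. Gpx8 was low there (2.07 ± 1.18 CPM). The granule peroxidases, which use hydrogen peroxide rather than remove it for protection, fell. Mpo of neutrophils and monocytes went from 3169 ± 717 to 128 ± 62.0 CPM (-4.63 ± 0.50), and Epx of eosinophils, also on the eosinophil marker list, from 139 ± 37.3 to 5.55 ± 3.96 CPM (-4.66 ± 0.59). Gpx1, the cytosolic glutathione peroxidase, was not called (0.87 ± 0.61, adjusted p = 0.345), and its value was -0.28 without replicate 3. Of 7 genes that supply NADPH, 1 was called higher and 0 lower, against 13.2% and 7.31% of all genes tested. For so short a list these counts are near the shares of all genes. The gene called was the malic enzyme Me1 (4.41 ± 0.36, from 5.83 ± 1.62 to 124 ± 37.0 CPM). The median of these 7 was 0.27, and it turned to -0.10 without coculture replicate 3.

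For each member, up to 3 tested genes with the most similar pattern were taken by Pearson's r of log2(CPM + 1) over the 8 libraries, which share the 2 groups and coculture replicate 3. They were Kansl1l, Ppp1r42 and Rasgrp1 for Cybb (r of at least 0.995), Fam173a, Eef2 and Exosc5 for Cyba (0.992), Cbfa2t3, Akap13 and Cd7 for Ncf1 (0.995) and Tfeb and Cdk2ap2 for Ncf4 (0.9905). Those of Nox4 were Adamtsl4, Fzd5 and Gpr137b (0.996). Sod1 was most like Fh1, S100a13 and Hsbp1 (0.983), Sod2 most like Vegfb, Arl8a and Ccl5 (0.990), and Cat most like Denr, Emc2 and Tatdn1 (0.985). Sod3 was most like Ccn5, Ccn2 and Col3a1 (0.999), and Col3a1 is also on the MSC marker list. In MKs alone Sod3 was at 0 and Col3a1 at a mean of 0.0552 CPM, so the split between the groups sets much of their r. A link of Sod3 to MSC RNA was not tested.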

How the data were processed

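Bulk RNA-Seq libraries of 4 cultures of MKs alone and 4 cocultures were analysed, grouped as GEO's labels name them. Values were deposited as whole-number counts for each gene, made according to the methods from SMART-Seq HT libraries with fastp and kallisto on mm10. How counts were summed over transcripts and whether strand was used is not given in the sources used here, and the batch term of the authors' DESeq2 design is not named. From these counts, edgeR 4.0.16 in R 4.3.3 was run on all 8 libraries (TMM factors, filterByExpr, then the quasi-likelihood F test with robust fitting and no covariate). Of 13387 genes, 11722 were tested. The scripts were tested on simulated counts with known fold changes in well-counted genes. The spread in that simulation was estimated without coculture replicate 3, so it does not cover the spread that this library adds. A floor of 3 counts was 0.284 to 0.662 CPM per library, covering counting error only, as reads carry no molecular identifiers. Ratios used exact permutation tests in scipy 1.17.1, with 0.5 counts added. Positions and transcript lengths came from GENCODE vM21 (GRCm38, the build of mm10). Alternatives were DESeq2 1.42.0, other scalings, no filter on low counts, a replicate block, an offset of 1 count, each library left out and, added after seeing the data, another family for adjusting the ratios.

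The members and gene lists were chosen with earlier results of these data known. Prex1 was named because it was called without coculture replicate 3. The rule for the other genes took the 9 members, every called gene of the pathway lists, and Rac1, Rac2 and Gpx1. It also took the 3 genes most similar to each member and the most abundant marker of each list. These markers were Pf4, Sparc, Csf1r, S100a8, Prg2, Ms4a1 and Hbb-bs. The results of 2 genes that this rule named are not reported here, and 1 of them was left out of its list.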

Additional observations from a re-analysis of the deposited data

Results flagged for a closer look

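Within each group of 4 libraries, the highest or lowest value was compared with the others by Dixon's gap ratio. Of 80 groups examined, 12 held a library far from the others, where chance gives about 1 in 20 (4.0), and coculture replicate 3 was that library in 11 of the 12. On the log2(CPM + 1) scale that library was high for Ncf1 (7.96) and Arhgdib (10.1), and low for Cybc1 (5.44), Dock2 (3.70), Gpx8 (5.50) and Mpo (5.29). Its log2 ratio per kb was -3.49 for Nox4 to Cybb, above the other cocultures, and -6.11 for Sod3 to Sod1, below them. Its mean log2(CPM + 1) was low for the MSC markers (4.72), the eosinophil markers (0.847) and the B cell markers (2.06). In MKs cultured alone, Gpx3 was at 3.13 in replicate 1, apart from the other 3 libraries.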

How the results depend on the processing

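DESeq2, RLE factors, library size only, scaling to MK and platelet markers and no filter on low counts changed no call of a member, although with RLE factors the adjusted p of Cat was 0.0535 and DESeq2 gave none for Ncf4. Between 2357 and 3116 genes were then called, against 2401. With the replicate number as a block (replicate block), 1669 genes and 2 higher members were called, and Sod2 (1.02, adjusted p = 0.0859) lost its call. The deviations of libraries with the same number correlated at 0.369, 0.020, 0.150 and 0.028, and those with other numbers at -0.282 to 0.099. Not every library correlated best with its own number. The labels give only a shared number, and so few correlations cannot decide whether the libraries were paired. Sign flips in replicate blocks give no p under 0.125, and the ratios of Cybb to Cyba (-2.05), Ncf1 to Ncf4 (-1.18), Nox4 to Cybb (7.95) and Sod3 to Sod1 (7.97) did not pass there by construction. Adjusted over 4 ratios, an alternative chosen after seeing the data, Cybb to Cyba (-2.05) and Ncf1 to Ncf4 (-1.18) lost their call (adjusted p = 0.0571, exact permutation test), since fewer ratios with the smallest p were in the family.

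With 1 library left out, called genes ran from 1634 to 4420 (the highest without coculture replicate 3), members called higher from 2 to 3 and lower from 1 to 3, and pathway genes called lower from 5 to 9. Log2 fold changes ran from -0.0026 to 0.86 for Cyba, -2.08 to -1.26 for Ncf1, -1.05 to 0.21 for Ncf4, 5.57 to 7.56 for Nox4 and 0.73 to 1.38 for Sod2. Ratios ran from -2.47 to -1.41 for Cybb to Cyba, -1.33 to -1.01 for Ncf1 to Ncf4, 7.42 to 8.69 for Nox4 to Cybb, 7.69 to 8.49 for Sod3 to Sod1 and -0.19 to 0.27 for Cat to Sod1, and with 4 against 3 libraries no p can be under 0.0571. The sign turned for Cyba (-0.0026) and Gpx1 (-0.28, with a range of -0.28 to 1.15) without coculture replicate 3, for Ncf4 without coculture replicate 1 (0.19), 2 (0.21) or 4 (0.11), and for Cat to Sod1 without replicate 2 (-0.11) or 3 (-0.19) of MKs alone or coculture replicate 1 (-0.084) or 4 (-0.049). The median of the NADPH supply list also turned (-0.10) without coculture replicate 3. None of the single values was past the threshold. The cause was not tested. Counts of 3 or fewer, as for Nox4 in 3 libraries of MKs alone, limit the size of its fold change.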
